A study of Mus musculus with 12 samples.

Results

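Motile cilia and ependymal genes are described here in astrocyte-enriched cultures of mouse cortex. They are 40 listed genes, found by symbol in a table of 55573 genes, and all 40 had at least 10 counts over the 12 libraries. Of the 40, 39 passed the filter on low counts that left 16761 genes for testing, and Tmem212, with 51 counts in all, did not. The list was drawn up by function, with Foxj1 as the marker of ciliated cells.

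The cultures came from forebrains of newborn C57BL6/J pups, and were grown in medium with horse serum, shaken to remove other glia and replated. They were transduced for 5 days with a lentivirus. The control virus was pCIG3 (pCMV-IRES-GFP), which expresses GFP, and the other was pCIG3-ACREB, for ACREB, a protein that blocks CREB (cAMP response element binding protein) in a dominant-negative way. Cultures of each virus then received PBS or 0.5 µM VIP (vasoactive intestinal peptide) for 30 min and were lysed after 90 min of recovery. All groups thus carried a lentivirus, with 3 libraries (replicates 1, 2 and 3) for each of the 4 groups. Whether replicates were grown from different animals or cultures is not stated, and the p-values therefore reflect spread among these libraries alone, possibly technical. RNA was sequenced after polyA selection, and total counts were 16571398 to 20529238 per library. The study asked how far the response to VIP runs through CREB.

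A motile cilium is a microtubule axoneme moved by outer and inner dynein arms and coordinated by radial spokes, a central apparatus and nexin-dynein links. In the brain, ependymal cells, which line the ventricles and share their origin in radial glia with astrocytes, carry many of them and move cerebrospinal fluid. Gmnc and Mcidas start the program of the multiciliated cell, Foxj1 and the RFX factors turn on the genes of the axoneme, and most of the listed genes encode parts of it.

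Values are CPM (a gene's counts scaled to library size, with sizes adjusted by the TMM method). Libraries of replicate number 1, 2 or 3 are given in the order control virus with PBS, control virus with VIP, ACREB with PBS and ACREB with VIP. Foxj1 measured 389, 337, 381 and 329.7 CPM (number 1), 402, 276, 322 and 307 CPM (number 2) and 375, 357, 354 and 332 CPM (number 3). The gene (ENSMUSG00000034227, chromosome 11, 116330704 to 116335399, GRCm38) was present in every library within a narrow range. Per exon length it stood at 132 CPM per kb, rank 274 among 30812 genes with a count, and the next members were Rsph1 at 22.5, Rsph9 at 20.3, Dnali1 at 12.6 and Cfap52 at 10.04 CPM per kb. In all, 30 of the 40 members lay above 1 CPM per kb, and the lowest was Spag17 at 0.0554. Markers of astrocytes summed to 6210 to 7383 CPM over 12 genes, led by Slc1a3 at 1817 to 2415 and Gfap at 1051 to 1565 CPM, with Gjb6 at or near 0. Markers of the choroid plexus, the other ciliated epithelium of the ventricles, summed to 30.4 to 50.03 CPM over 10 genes. Ependymal markers apart from the members summed to 268 to 398 CPM over 10 genes, with Cd24a alone at 165 to 272 CPM. Those of neural stem cells and radial glia summed to 8303 to 12380 CPM over 8 genes, above the astrocyte markers. Sums were 1889 to 3033 CPM for fibroblasts and mural cells, 932 to 1598 for the oligodendrocyte lineage and 724 to 1883 for microglia.

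Promoter windows were read because the members share regulators and because ACREB acts on a DNA-binding factor. RefSeq windows (GRCm38.p6, 250 bases before to 50 after a transcription start) were found for 36 of the 40 members, 40 windows in all. Foxj1, Rsph1, Rsph4a and Cfap54 had none. Motifs were searched by exact letters on both strands. The RFX half-site GTTGCC lay in 40% of member windows and 12.51% of all 32851 windows, and the paired form (GTTNCC followed after any 3 bases by GNAAC), which can overlap the half-site, in 10% and 0.8036%. The forkhead core GTAAACA lay in 10% and 3.65%. The 4 members with the paired RFX form were Cfap44, Hydin, Spag16 and Tekt4, whose windows are printed with RFX matches in capitals.
Cfap44 (chr16:44394549-44394848, + strand): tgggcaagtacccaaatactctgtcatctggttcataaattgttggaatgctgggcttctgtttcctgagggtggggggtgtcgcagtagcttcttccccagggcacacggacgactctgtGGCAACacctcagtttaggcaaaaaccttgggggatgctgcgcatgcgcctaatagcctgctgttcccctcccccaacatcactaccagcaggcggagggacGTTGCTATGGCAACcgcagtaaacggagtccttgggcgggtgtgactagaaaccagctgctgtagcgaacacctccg
Hydin (chr8:110266727-110267026, + strand): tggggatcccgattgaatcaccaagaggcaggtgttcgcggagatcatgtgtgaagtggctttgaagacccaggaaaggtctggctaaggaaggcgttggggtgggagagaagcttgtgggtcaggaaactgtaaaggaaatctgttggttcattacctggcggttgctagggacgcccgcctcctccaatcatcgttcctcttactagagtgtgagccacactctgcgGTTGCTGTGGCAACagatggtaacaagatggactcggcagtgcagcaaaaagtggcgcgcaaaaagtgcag
Spag16 (chr1:69826720-69827019, + strand): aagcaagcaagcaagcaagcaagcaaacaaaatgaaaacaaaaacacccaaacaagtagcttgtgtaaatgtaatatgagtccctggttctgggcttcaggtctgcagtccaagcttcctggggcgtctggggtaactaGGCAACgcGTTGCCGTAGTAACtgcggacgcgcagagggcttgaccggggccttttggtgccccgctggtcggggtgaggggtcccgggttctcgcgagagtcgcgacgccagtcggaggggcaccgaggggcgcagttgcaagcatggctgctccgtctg
Tekt4 (chr17:25471340-25471639, + strand): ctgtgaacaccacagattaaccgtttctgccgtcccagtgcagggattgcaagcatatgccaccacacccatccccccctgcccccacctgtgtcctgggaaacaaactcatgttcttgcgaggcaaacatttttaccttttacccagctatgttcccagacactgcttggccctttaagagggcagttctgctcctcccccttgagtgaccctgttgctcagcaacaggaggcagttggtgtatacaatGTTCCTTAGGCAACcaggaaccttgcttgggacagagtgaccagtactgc
The cAMP response element TGACGTCA, the full site that CREB is known to bind, lay in 3 windows, 7.5% against 1.79% of all windows, and its half-site TGACG, which the full site contains, in 25% against 20.81%. The first base of the 3 full sites, printed in capitals, stood at -175 from the start of Dnah6, -54 from that of Mlf1 and -9 from that of Spag6l.
Dnah6: ctgacaactaaTGACGTCAaatactctggg
Mlf1: cctcaccttagTGACGTCAtaaggtcatga
Spag6l: cactctggccgTGACGTCAcgacctttgct
These matches are letters in a window and not measured binding.

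The first comparison asked whether VIP moved the members in cultures with control virus. None of the 39 tested members passed the test, in a comparison in which 0.489% of all genes were called in edgeR (quasi-likelihood test, Benjamini-Hochberg adjusted p under 0.05). The median member differed by -0.01 on the log2 scale, against -0.02 for all genes. With a replicate block and in DESeq2 0 members were called as well, where 1.63% and 1.53% of all genes were. Unadjusted p was under 0.05 for 2 members in each of the 3 fits, against 6.42%, 12.9% and 7.11% of all genes in edgeR, with the block and in DESeq2. These 2 were Foxj1 and Rfx2. Foxj1 measured 389, 402 and 375 CPM with PBS and 337, 276 and 357 CPM with VIP, so the 3 VIP libraries were the lower ones. The means were 389 ± 13.2 and 323 ± 42.7 CPM (SD, n = 3), and the log2 difference of -0.26 did not pass edgeR's test (adjusted p = 0.72). With offsets for GC content and length it was -0.10. Rfx2, an RFX factor of ciliary genes, measured 38.4, 42.9 and 48.1 CPM with PBS and 32.6, 30.7 and 37.5 CPM with VIP, again with no overlap. Its log2 difference was -0.36 (edgeR adjusted p = 0.49, with the replicate block 0.092). Only the fit that joined the block and the offsets called it, at -0.31 (adjusted p = 0.032), where 1.26% of all genes were lower. All 3 VIP libraries were below all 3 PBS libraries for these and for Dnai2, an intermediate chain of the outer dynein arm, which is 7.69% of members against 5.27% of all genes.

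Compared by number, 17 of the 40 members were higher with VIP in number 1, 21 in number 2 and 13 in number 3. The median differences were -0.08, 0.19 and -0.09 on the log2 scale, so the pairs did not move one way.

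With ACREB, VIP against PBS called 0 of 39 members by edgeR, where 0.0119% of all genes were called, and 0 with the replicate block (0.0776%) and in DESeq2 (0.161%), and none had an unadjusted p under 0.05 in any of them, where 1.92%, 3.81% and 2.14% of all genes did. The median was 0.00, as for all genes. Higher values with VIP were seen in 25, 27 and 9 of 40 members in numbers 1, 2 and 3. Foxj1 measured 381, 322 and 354 CPM with PBS and 329.7, 307 and 332 CPM with VIP, a log2 difference of -0.13 with overlapping libraries. The interaction (the change with VIP in ACREB less that in control virus) also called 0 of 39 members in edgeR, with the replicate block and in DESeq2, with 0 at an unadjusted p under 0.05 (1.2%, 2.75% and 1.29% of all genes), in a test that called 0% of all genes.

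ACREB against control virus called 0 of 39 members with PBS, where 0.0358% of all genes were called, and 0 with VIP, where 0.0537% were, by edgeR's quasi-likelihood test. With the replicate block 0 were called in both (0.221% and 0.364% of all genes), and in DESeq2 0 (0.698% and 0.799%). In PBS and VIP, 1 and 2 members had an unadjusted p under 0.05 in edgeR and in DESeq2, where 5.3% and 5.69% of all genes did in edgeR and 5.89% and 6.2% in DESeq2. With the block 5 and 7 members did, where 10.8% and 11% of all genes did. The median member was 0.15 higher with ACREB in PBS and 0.13 higher in VIP on the log2 scale, against 0.01 and 0.00 for all genes, and 29 of 39 members lay above 0 in each. By number, 25, 29 and 33 of 40 were higher with PBS and 29, 26 and 29 with VIP. Within the same-numbered pairs 1, 2 and 3 the median member differed by 0.11, 0.40 and 0.17 with PBS and by 0.15, 0.11 and 0.09 with VIP, above 0 in each of the 6 pairs, while the medians of all genes were 0.00, 0.03 and 0.00 and 0.00, 0.01 and 0.00. These pair values had no offsets for GC content and length. Each library's deviation from the mean of all 12 libraries was set against GC content and length. In the pair at 0.40 these explained 48.3% of the variance of that deviation for the control library and 24.8% for the ACREB library. With the replicate block the medians were 0.16 and 0.14. In fits without the block, the medians moved with single libraries. Leaving out 1 library also leaves the numbers unequal between the groups, and the part of that imbalance was not tested. The PBS median was -0.10 without control PBS library 2 and 0.05 without ACREB PBS library 1, and without ACREB PBS library 3 it was within 0.01 of 0. It was 0.34 without control PBS library 1 or ACREB PBS library 2. The VIP median was -0.04 without control VIP library 2 or without ACREB VIP library 1.

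Within same-numbered pairs, 12 of 39 members were higher with ACREB in all 6 pairs, 30.8% against 8.44% of all genes, and 2, Tekt4 and Ccno, were lower in all 6, 5.13% against 7.76%. These counts were made without offsets, over genes that share the same libraries. The 12 were Gmnc, Dnah5, Dnah6, Dnah9, Dnah11, Rsph1, Lrrc23, Ccdc40, Cfap43, Cfap52, Cfap126 and Mlf1. For Rsph1, which encodes a radial spoke head protein, the ACREB libraries also lay above the control libraries of every number in both treatments, as they did for 1.31% of all genes. It measured 30.7, 22.6 and 27.7 CPM in control virus with PBS and 39.4, 31.9 and 35.2 CPM in ACREB with PBS. With VIP it measured 28.6, 21.7 and 28 CPM in control virus and 39.5, 29.99 and 35 CPM in ACREB. The lowest ACREB library was above the highest control library each time. The log2 differences were 0.40 (SE 0.16) and 0.42 (SE 0.16), with edgeR adjusted p = 0.83 and 0.68. With the replicate block the adjusted p was 0.10 and 0.078, and with block and offsets together it was 0.048 in PBS, past the threshold (0.71% of all genes were higher), and 0.074 in VIP. Rsph1 was the 1 member higher without overlap in PBS, 2.56% of members against 4.34% of all genes. In VIP, Cfap52, Cfap126 and Dnai2 joined it, 10.3% of members against 6.97% of all genes. Ccno, a cyclin of centriole amplification, was the 1 member lower without overlap, at 2.35, 2.6 and 2.43 CPM in control virus and 1.85, 1.64 and 1.24 CPM in ACREB, where 7.06% of all genes were lower in this way.

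**Figure D1:**
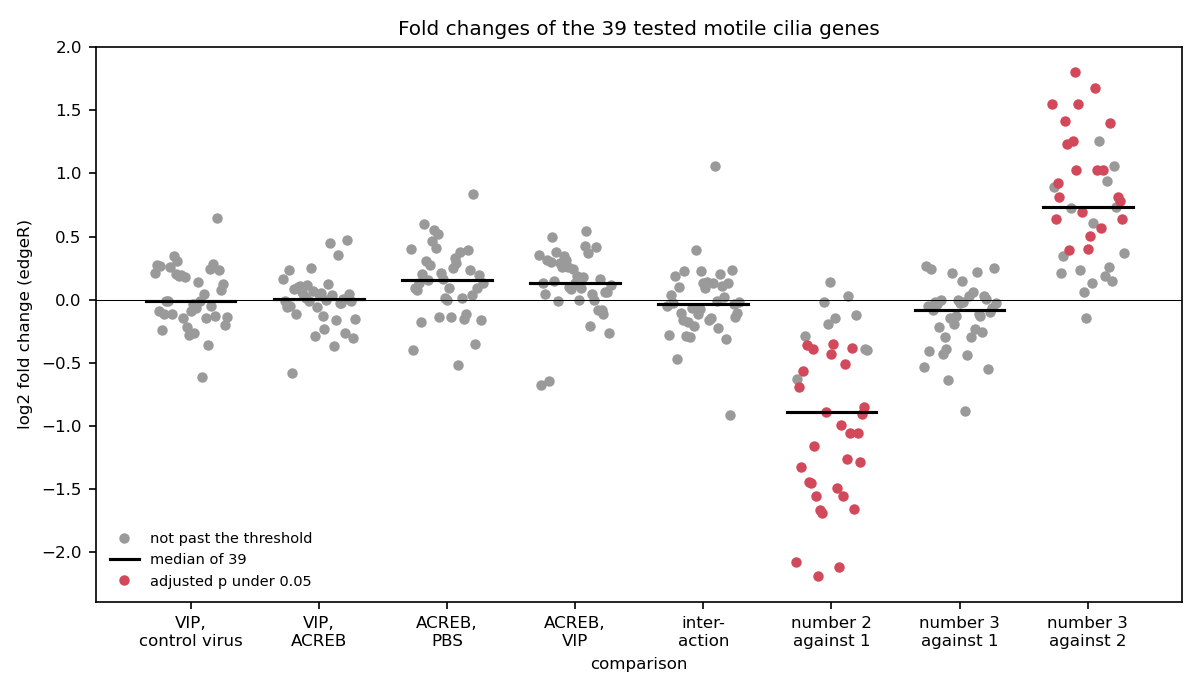
Log2 fold changes from edgeR (vertical axis) of the 39 tested members in 8 comparisons (horizontal axis), with 1 point per gene, red where the adjusted p was under 0.05 and grey otherwise, and a line at the median. No point is red in the 5 comparisons of virus and treatment, 29 are red and below 0 for number 2 against number 1, and 22 are red and above 0 for number 3 against number 2.

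The larger differences followed the replicate number. Summed over the 40 members, the libraries measured 1217, 1200, 1262 and 1324 CPM in number 1, 792, 815, 812 and 882 CPM in number 2 and 1177, 1074, 1258 and 1112 CPM in number 3. All 4 libraries numbered 2 were below the other 8. Without Foxj1 the means were 892 ± 71.8, 499 ± 80.7 and 801 ± 77.7 CPM (SD, n = 4) for numbers 1, 2 and 3. In bulk RNA, fewer ciliated cells and less RNA of these genes per cell cannot be told apart, and what the number marks is not given in the labels. Libraries also differed in trends with GC content and exon length. These explained up to 48.3% of the variance of a library's deviation from the mean library, in control PBS library 2. Values with offsets for these trends are given below.

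In a model with group and number, 26 of 39 members differed by number (edgeR F test, adjusted p under 0.05), against 15.5% of all genes. Number 2 against number 1 called 29 members lower and 0 higher, where 8.32% of all genes were lower and 8.3% higher. Number 3 against number 2 called 22 higher and 0 lower, where 4.82% of all genes were higher and 5.43% lower. Number 3 against number 1 called 0 members in edgeR, where 4.24% of all genes were called, and 1 in DESeq2, where 5.92% were, with 6 at an unadjusted p under 0.05 in edgeR, where 15.8% of all genes were. The median member was -0.89 for number 2 against 1 and 0.74 for number 3 against 2, against 0.03 and 0.01 for all genes. All 4 libraries numbered 2 lay below the other 8 for 19 members, 48.7% against 2.6% of all genes. The number 2 library was the lowest of its group in all 4 groups for 26 members, 66.7% against 6.72%.

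**Figure D2:**
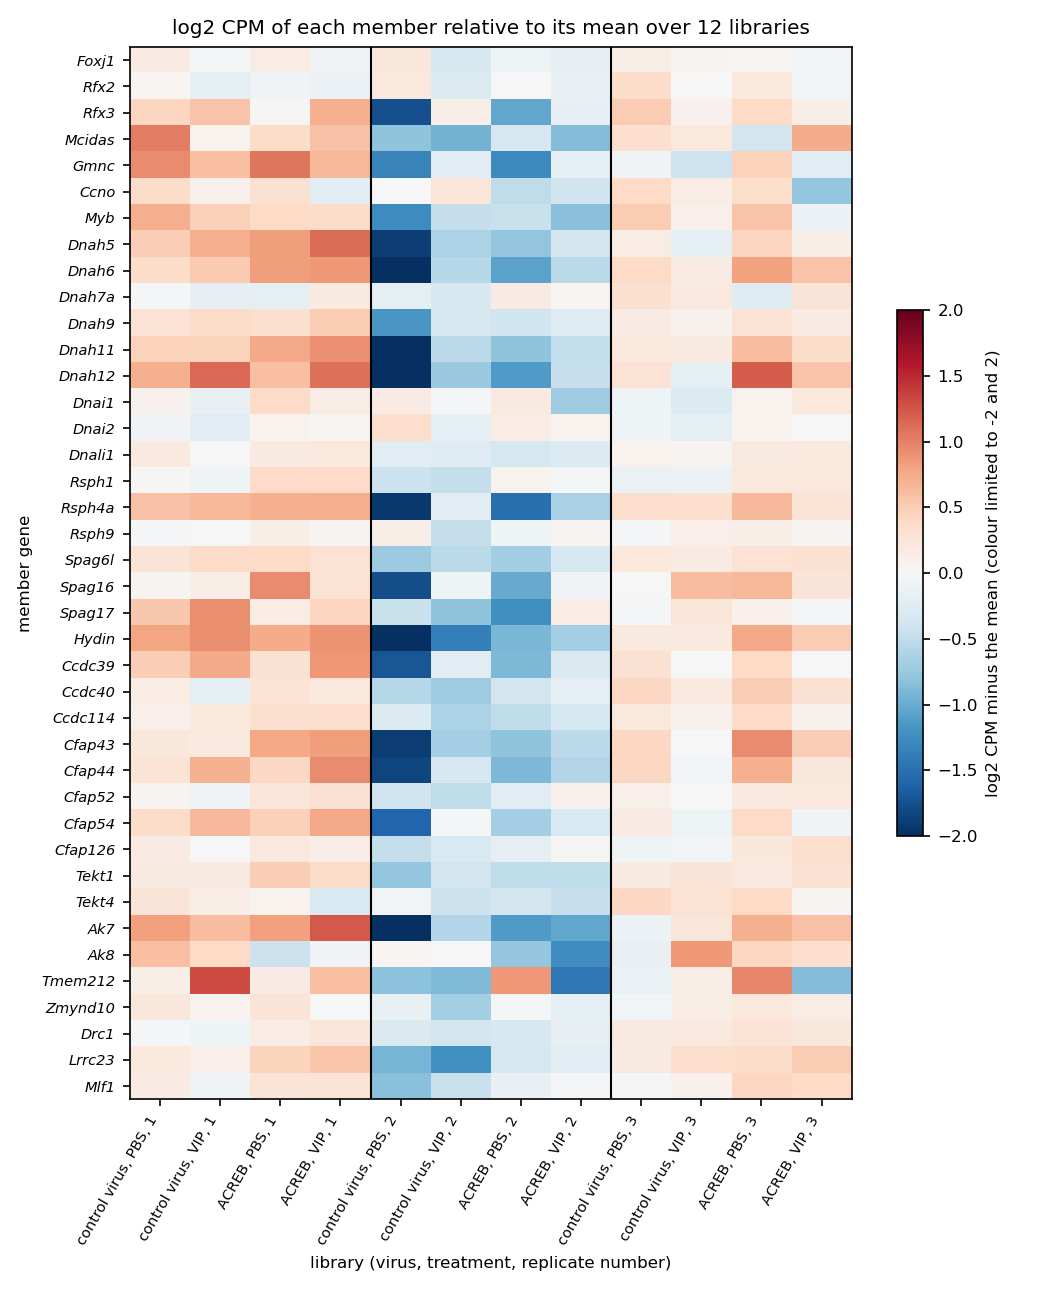
Colour gives the log2 CPM of each of the 40 members (rows) relative to its mean over the 12 libraries (columns, ordered by replicate number, with lines between the numbers). The 4 columns numbered 2 are blue for most members and control PBS library 2 is the darkest, while Foxj1, Rfx2, Dnah7a, Dnai2 and Rsph9 stay pale across all columns.

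Among the regulators, 4 of 7 were lower in number 2 than in number 1. Gmnc measured 10.4, 8.29, 11.4 and 8.65 CPM (number 1), 2.07, 4.6, 2.18 and 4.74 CPM (number 2) and 5.15, 4.01, 7.43 and 4.6 CPM (number 3). Mcidas measured 1.09, 0.512, 0.654 and 0.786 CPM (number 1), 0.23, 0.1999, 0.363 and 0.218 CPM (number 2) and 0.637, 0.581, 0.351 and 0.879 CPM (number 3). For Gmnc and Mcidas, both geminin-family starters of multiciliation, the libraries numbered 2 lay below those numbered 1 and overlapped those numbered 3. Mcidas had only 121 counts in all. Myb measured 6.03, 5.06, 4.8 and 4.66 CPM (number 1), 1.44, 2.55, 2.6 and 1.96 CPM (number 2) and 5.15, 3.85, 5.39 and 3.31 CPM (number 3). For Myb, a transcription factor of multiciliated cell differentiation whose counts are uncertain because Gm26577 overlaps it on the opposite strand, number 2 was below both other numbers. Rfx3 measured 68.4, 75.3, 51.5 and 83.2 CPM (number 1), 14.9, 54.9, 24.6 and 45.1 CPM (number 2) and 71.9, 53.6, 67 and 54.8 CPM (number 3). Rfx3, an RFX factor, overlapped between the numbers, with control VIP library 2 the highest of its number. The log2 differences of number 2 against 1 were -1.49, -1.56, -1.26 and -1.06 for Gmnc, Mcidas, Myb and Rfx3 (edgeR adjusted p = 0.014, 0.030, 0.0088 and 0.038). Foxj1 itself differed by -0.14 (adjusted p = 0.20), Rfx2 by 0.03 and Ccno by -0.29, and none of these passed.

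Of the outer dynein arm genes, 4 of 6 were lower in number 2. Dnah5 measured 35.2, 41.3, 44.5 and 54.1 CPM (number 1), 6.67, 16, 14.3 and 19.4 CPM (number 2) and 27.7, 22, 33.8 and 27.1 CPM (number 3). Dnah9 measured 77.1, 81.4, 78.8 and 89.8 CPM (number 1), 28, 50.7, 47.8 and 52.6 CPM (number 2) and 70.4, 66.8, 76.9 and 70.5 CPM (number 3). Dnah11 measured 14.2, 14.1, 17.6 and 19.5 CPM (number 1), 2.3, 7.2, 5.87 and 7.36 CPM (number 2) and 11.9, 11.7, 15.9 and 13.4 CPM (number 3). These encode heavy chains, the motors of the arm, and for all 3 the libraries numbered 2 lay below the other 8. Ccdc114 measured 26.2, 28.2, 30.5 and 31.2 CPM (number 1), 20.1, 15.7, 17.1 and 19.2 CPM (number 2) and 28.2, 26, 32 and 26 CPM (number 3). Ccdc114, of the docking complex, did so too. Dnah5 was 3.17-fold lower in number 2 than in number 1 (log2 -1.66, SE 0.21, edgeR adjusted p = 0.0033), and the others were -0.89, -1.56 and -0.69 on the log2 scale. Dnah9, Dnah11 and Ccdc114 overlap Gm12296, Cdca7l and Gm45442 on the opposite strand. The intermediate chain genes did not pass the test, with Dnai1, which overlaps Enho, at -0.19 (adjusted p = 0.47) and Dnai2 at 0.14 (adjusted p = 0.35).

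Inner dynein arm genes were lower in 3 of 4 cases. Dnah6 measured 24, 26.7, 33.4 and 34.1 CPM (number 1), 3.56, 12.4, 8.83 and 12.7 CPM (number 2) and 24.7, 20.8, 32.7 and 27.7 CPM (number 3). Dnah12 measured 2.23, 3.02, 2.07 and 2.98 CPM (number 1), 0.0575, 0.75, 0.544 and 0.927 CPM (number 2) and 1.65, 1.16, 3.22 and 2.02 CPM (number 3). Both encode heavy chains, and number 2 was below the other 8 libraries in both. Dnah12 had the lowest value of all members in this fit, at 4.57-fold (log2 -2.19, SE 0.44, edgeR adjusted p = 0.015), on 382 counts in all. With offsets for GC content and length it was -1.78, and Ak7 was lowest at -2.09. Dnah6 differed by -1.69 and overlaps Gm20560. Dnali1 measured 30.7, 26.7, 30.2 and 31 CPM (number 1), 22.8, 22.2, 20.8 and 22.1 CPM (number 2) and 27.9, 27.6, 30.2 and 30.7 CPM (number 3). Dnali1, the light intermediate chain, showed the same separation at a smaller size, -0.43 (adjusted p = 0.014), and overlaps Gnl2. Dnah7a differed by -0.02 with an SE of 0.23, on 298 counts that near-identical copies (Dnah7b and Dnah7c) may share.

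Radial spoke genes were lower in number 2 in 3 of 4 cases. Rsph4a measured 34.8, 36.6, 38 and 38.3 CPM (number 1), 5.98, 19.9, 8.11 and 14.7 CPM (number 2) and 29.5, 29.2, 36.5 and 28 CPM (number 3). Lrrc23 measured 12.7, 11.8, 14.9 and 16.2 CPM (number 1), 5.69, 4.7, 8.65 and 9.32 CPM (number 2) and 12.4, 14.1, 14.2 and 15.7 CPM (number 3). In Rsph4a, a spoke head gene, and in Lrrc23, a further spoke gene, all libraries numbered 2 were the lowest. Rsph1 measured 30.7, 28.6, 39.4 and 39.5 CPM (number 1), 22.6, 21.7, 31.9 and 29.99 CPM (number 2) and 27.7, 28, 35.2 and 35 CPM (number 3). Rsph9 measured 31.8, 32.2, 35.3 and 33.8 CPM (number 1), 35.2, 23.3, 30.5 and 33.7 CPM (number 2) and 31.6, 34.9, 35.1 and 33.6 CPM (number 3). For these 2 spoke head genes the numbers overlapped. The log2 differences were -1.66 (SE 0.26, edgeR adjusted p = 0.0071) for Rsph4a, -0.997 (0.0048) for Lrrc23, -0.39 (0.015) for Rsph1 and -0.12 (0.43) for Rsph9. Transcripts of the spoke head differed by 3.16-fold for Rsph4a and, short of the threshold, by 1.09-fold for Rsph9.

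All 5 genes of the central apparatus were lower in number 2. Hydin measured 5.92, 6.6, 5.78 and 6.4 CPM (number 1), 0.747, 1.25, 1.75 and 2.07 CPM (number 2) and 3.93, 3.91, 5.8 and 4.86 CPM (number 3). Spag6l measured 23.3, 25.6, 25.9 and 23.9 CPM (number 1), 11.7, 13.5, 12 and 15.7 CPM (number 2) and 22.7, 21.9, 23.8 and 24.1 CPM (number 3). Spag16 measured 1.51, 1.59, 2.89 and 1.8 CPM (number 1), 0.345, 1.35, 0.665 and 1.36 CPM (number 2) and 1.43, 2.27, 2.34 and 1.76 CPM (number 3). In these 3 the libraries numbered 2 lay below all others. Cfap54 measured 61.4, 75.1, 66.2 and 80.7 CPM (number 1), 15.8, 46.7, 29.8 and 38.6 CPM (number 2) and 53.4, 44.7, 62.3 and 45.7 CPM (number 3). Spag17 measured 0.675, 0.921, 0.491 and 0.618 CPM (number 1), 0.287, 0.1999, 0.121 and 0.491 CPM (number 2) and 0.425, 0.528, 0.468 and 0.414 CPM (number 3). Cfap54 in number 2 stayed below number 1 and overlapped number 3, and Spag17, with 105 counts in all, overlapped number 3 as well and came close to number 1. Hydin was 4.33-fold lower in number 2 than in number 1 (log2 -2.12, SE 0.22, edgeR adjusted p = 0.0019), and the others differed by -0.90 (Spag6l), -1.06 (Spag16), -1.16 (Cfap54) and -1.29 (Spag17). Hydin and Spag17 overlap genes on the opposite strand, and reads of Spag6l may be shared with its copy Spag6.

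The ruler and nexin-dynein genes, all 3 of them, were lower. Ccdc39 measured 46.3, 55.7, 41.1 and 60.6 CPM (number 1), 10.1, 28.4, 17.7 and 27 CPM (number 2) and 40.7, 32.7, 43.6 and 33.2 CPM (number 3). Ccdc40 measured 44.6, 35.4, 48.8 and 46.5 CPM (number 1), 27.1, 24.5, 31.2 and 35.8 CPM (number 2) and 53.6, 46.3, 57 and 49.7 CPM (number 3). Ccdc39 and Ccdc40 form the ruler that spaces the arms and spokes, and number 2 was lowest throughout for Ccdc39 (which overlaps Ttc14) but overlapped number 1 for Ccdc40. Drc1 measured 22.7, 21.8, 25.6 and 27.5 CPM (number 1), 19, 18, 18.6 and 20.7 CPM (number 2) and 26.2, 26.4, 28.2 and 27.1 CPM (number 3). Drc1, of the nexin-dynein complex, was lowest in all libraries numbered 2. The log2 differences of number 2 against 1 were -1.33, -0.56 and -0.35 (edgeR adjusted p = 0.012, 0.0088 and 0.027).

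Other axonemal genes were lower in 5 of 6 cases. Cfap44 measured 59, 79.7, 64.8 and 93.2 CPM (number 1), 13.5, 38.4, 26.1 and 32.4 CPM (number 2) and 65, 46.9, 79.3 and 57 CPM (number 3). Cfap43 measured 8.94, 8.75, 13.1 and 13.6 CPM (number 1), 1.95, 4.7, 4.29 and 5.24 CPM (number 2) and 10.2, 7.6, 14.7 and 10.8 CPM (number 3). Tekt1 measured 9.87, 9.92, 12.3 and 11.3 CPM (number 1), 5.06, 6.75, 6.11 and 6.11 CPM (number 2) and 9.92, 10.5, 10.01 and 10.9 CPM (number 3). Cfap43 and Cfap44 are partners tied to inner arms, Tekt1 is a tektin of the microtubule doublets, and for all 3 number 2 was the lowest. Cfap43 overlaps Gm22240 and Itprip on the same strand, so its counts are uncertain. Cfap52 measured 24, 21.9, 27.1 and 28.2 CPM (number 1), 17.3, 16.1, 19.8 and 24.3 CPM (number 2) and 24.7, 23, 26.4 and 26.6 CPM (number 3). Cfap126 measured 18.4, 16.2, 18.9 and 17.9 CPM (number 1), 11.7, 13.2, 14.4 and 16.7 CPM (number 2) and 15.4, 15.7, 19 and 20.8 CPM (number 3). Tekt4 measured 2.96, 2.71, 2.56 and 1.97 CPM (number 1), 2.36, 1.8, 1.88 and 1.75 CPM (number 2) and 3.29, 3.01, 3.28 and 2.53 CPM (number 3). In Cfap52, which overlaps 9130017K11Rik, in Cfap126 and in Tekt4 the numbers overlapped. The log2 differences were -1.45, -1.45, -0.85, -0.39 and -0.36 for Cfap44, Cfap43, Tekt1, Cfap52 and Cfap126 (edgeR adjusted p from 0.0041 to 0.041). Tekt4 passed for number 3 against 2 (0.64, adjusted p = 0.029) but not for number 2 against 1 (-0.39, 0.10).

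Ak7 measured 9.25, 8.03, 9.22 and 12.3 CPM (number 1), 1.09, 3.4, 2.3 and 2.45 CPM (number 2) and 4.78, 6.18, 8.55 and 7.81 CPM (number 3). Ak7, an adenylate kinase of the axoneme, was 4.23-fold lower in number 2 (log2 -2.08, SE 0.24, edgeR adjusted p = 0.0021), with all 4 libraries below the other 8. Ak8, its relative, differed by -0.63 (adjusted p = 0.14). Mlf1 measured 17.2, 14.5, 18.5 and 18.6 CPM (number 1), 8.57, 11.3, 14 and 15.2 CPM (number 2) and 15, 16.4, 20.5 and 20.5 CPM (number 3). Mlf1 differed by -0.51 (adjusted p = 0.024), with overlap. Zmynd10, which helps assemble dynein arms in the cytoplasm and overlaps Gm34106, differed by -0.40 (adjusted p = 0.070).

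**Figure D3:**
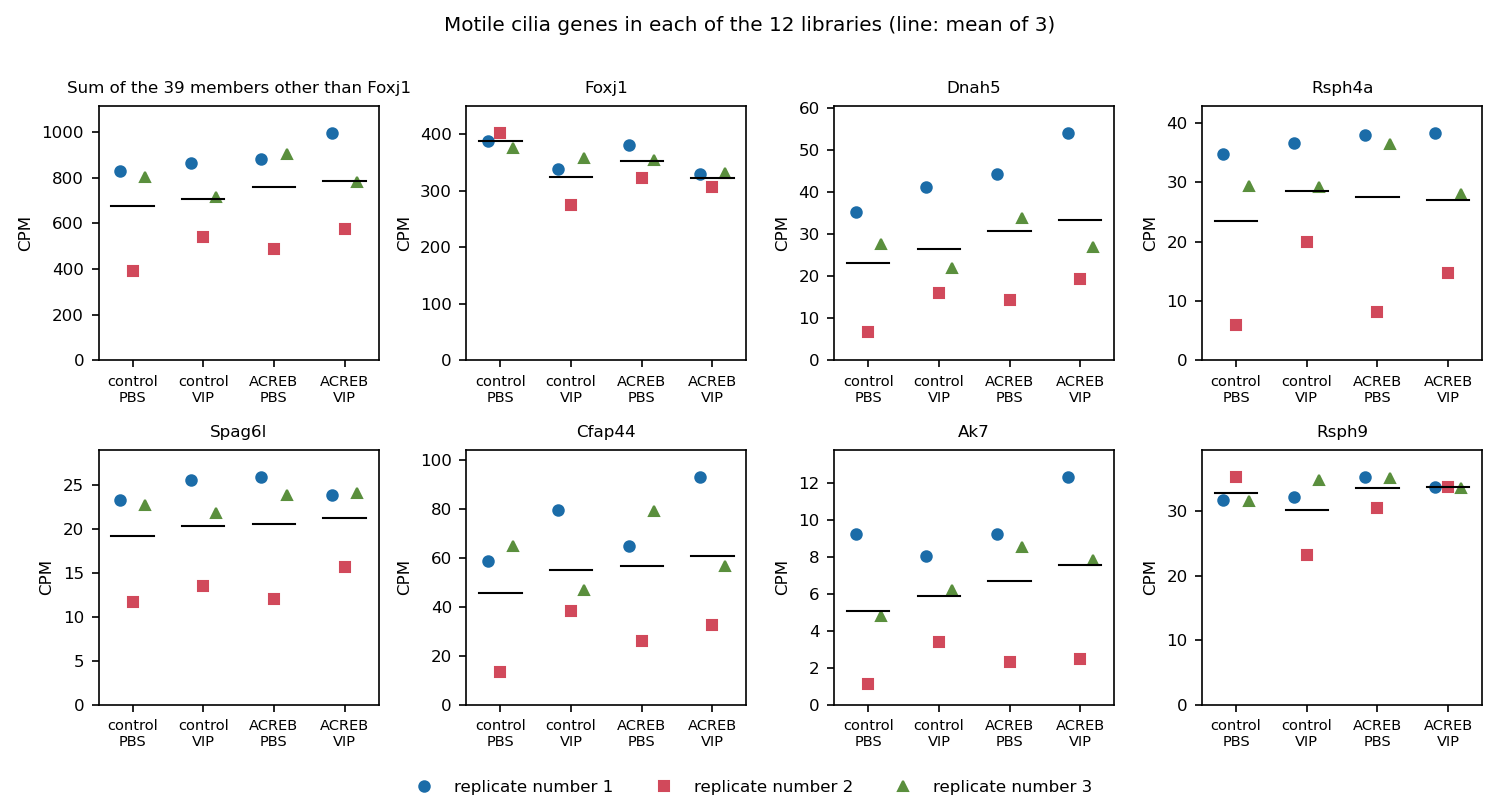
CPM (vertical axis, from 0) in each library by group (horizontal axis), with marker shape and colour for the replicate number and a line at the mean of 3, for the sum of 39 members without Foxj1 and for 7 members. The red squares of number 2 lie lowest in every group for the sum, Dnah5, Rsph4a, Spag6l, Cfap44 and Ak7, and not in every group for Foxj1 and Rsph9.

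How many members were called for number 2 against 1 depended on single libraries. Leaving out control PBS library 1 or ACREB PBS library 2 turned the 29 into 15, leaving out ACREB VIP library 1 gave 16, and leaving out ACREB PBS library 1 gave 19. The 22 of number 3 against 2 became 13 without ACREB PBS library 3, and the 26 of the F test became 16 without ACREB PBS library 2. Calls in every such fit were made for 15 members, Myb, Dnah5, Dnah6, Dnah9, Dnah11, Rsph4a, Spag6l, Hydin, Ccdc40, Ccdc114, Cfap43, Cfap44, Tekt1, Ak7 and Lrrc23. Without both PBS libraries numbered 2, 20 of the 29 were still called. The share of all genes called moved between such fits as well. For number 3 against 1 it was 4.24% with all libraries and 16.5% without both PBS libraries numbered 2. For number 2 against 1, number 3 against 2 and the F test these shares are not given here, so the member counts are a description only.

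GC content and exon length moved with these differences. They explained 48.3% of the variance of the deviation of control PBS library 2 from the mean library, and 24.8% in ACREB PBS library 2. The share was 11.1% in control VIP library 2 and 1.09% in ACREB VIP library 2, and up to 22.5% in libraries of other numbers. Across the 39 members, the difference of number 2 against 1 ran with exon length at a Spearman rho of -0.51 (-0.29 over all genes) and with GC content at 0.59 (0.51), as a description over genes that share the same libraries. The 19 members longer than 4568 bases had a median of -1.29 and 17 were called lower, while the 20 others had a median of -0.39 and 12 were called. Among all genes of those lengths the medians were -0.10 and 0.11, and 13.5% and 4.42% were called lower.

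With offsets that remove the trends with GC content and length in each library, the members remained lower in number 2. The edgeR test then called 31 lower and 0 higher, where 9.53% of all genes were lower and 12.1% higher, and 32 higher in number 3 against 2, where 8.13% were. Of the 29 members called before, 27 were called again, and Foxj1 (-0.37, adjusted p = 0.0012), Rsph9, Tekt4 and Zmynd10 were added. The medians of longer and shorter members came closer, at -0.98 and -0.61. Across members the Spearman rho remained at -0.36 with exon length and 0.36 with GC content, while over all genes it was 0.01 and -0.01. Spag16 and Spag17 were no longer called, and Dnah7a (0.38) and Dnai2 (-0.01) again did not pass.

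**Figure D4:**
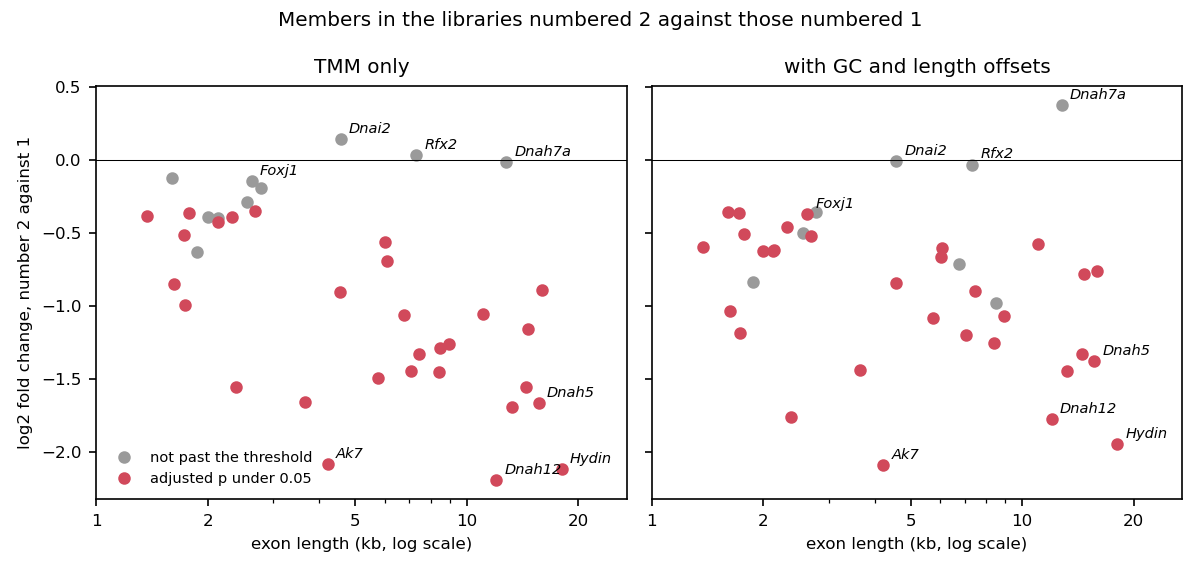
Log2 fold change of number 2 against number 1 (vertical axis) against exon length in kb (horizontal log axis) for the 39 tested members, without (left) and with (right) offsets for GC content and length. Most points lie below 0 in both panels, with red for an adjusted p under 0.05, and the longest genes lie nearer to the shorter ones on the right.

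Related gene lists were read in the same tests. They too were chosen with earlier results of these data known, so they are no independent check of the members. Of 66 tested other genes of motile cilia, 40 were lower in number 2 than in number 1 and 0 higher, with a median of -0.62 (offsets gave 41 lower). Of all genes 8.32% were lower and 8.3% higher, and with offsets 9.53% and 12.1%. Wdr63 measured 5.09, 4.76, 5.13 and 4.997 CPM (number 1), 2.3, 2.1, 1.45 and 2.18 CPM (number 2) and 4.72, 4.49, 4.39 and 4.45 CPM (number 3). Fam216b measured 13, 10.9, 14.1 and 11.8 CPM (number 1), 2.3, 4.45, 2.96 and 4.47 CPM (number 2) and 7.54, 6.86, 11.9 and 9.16 CPM (number 3). Both were lowest in all libraries numbered 2, at -1.31 and -1.81 on the log2 scale (edgeR adjusted p = 0.0023 and 0.0023), and Fam216b overlaps Gm19301. Cfap65, which overlaps Gm15841, differed by -1.85, and Dnah3, which overlaps Lyrm1, was called lower on 92 counts in all. Of 9 ependymal markers apart from the members, 5 were lower, where 8.32% of all genes were. Of these, Ccdc153 (-1.04), Dynlrb2 (-0.79) and Tppp3 (-0.43) are also in the list of other motile cilia genes. Calml4 (-0.95) and Hdc (-0.86) are not. Rarres2 was not called, with means of 23.4 and 23 CPM in numbers 1 and 2.

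Genes of intraflagellar transport and the BBSome serve primary as well as motile cilia. Of 42, 12 were lower in number 2 than in number 1 and 0 higher, with a median of -0.24 (offsets gave 13 lower and 3 higher), and Ift88, a transport subunit that overlaps Ift88os, differed by -0.93 (edgeR adjusted p = 0.014). Of 16 tested multiciliation genes, 6 were lower and 0 higher (9 and 0 with offsets), among them Deup1, of the deuterosomes that amplify centrioles, at -1.77 (adjusted p = 0.013). In this comparison 8.32% of all genes were lower and 8.3% higher, and with offsets 9.53% and 12.1%.

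Markers of other cells differed by number as well. Microglial markers were all 8 higher in number 3 than in number 1, where 4.24% of all genes were called in either direction. Their sum was 846 ± 126, 1119 ± 310 and 1665 ± 209 CPM (SD, n = 4) in numbers 1, 2 and 3. Markers of fibroblasts and mural cells summed to 1986 ± 86.1, 2740 ± 406 and 2212 ± 33.7 CPM. Most of that sum was Acta2, with means of 1831, 2540 and 2074 CPM. Of the others, Col1a2, Col3a1 and Pdgfrb were called lower and Lum higher in number 3 than in number 2. Markers of choroid plexus summed to 47.6 ± 2.60, 33.4 ± 3.14 and 37.2 ± 2.15 CPM. Of choroid plexus markers none was at 0 in every library, and single genes went different ways. Ttr, the transthyretin gene, had means of 17.3, 12.4 and 0.556 CPM in numbers 1, 2 and 3 (log2 -4.97 for number 3 against 1, edgeR adjusted p = 2.2e-05), and Folr1, a folate receptor gene, 8.32, 5.87 and 15.1 CPM (log2 0.87, adjusted p = 0.017). Astrocyte markers summed to 7108 ± 229, 6775 ± 385 and 6432 ± 171 CPM. In number 2 against number 1, 8.3% of all genes were called higher and 8.32% lower. There, 4 of 11 tested astrocyte markers, 3 of 8 of microglia, 2 of 8 of fibroblasts and mural cells and 3 of 8 of neural stem cells were higher, with 1 of the stem cell markers lower. Of oligodendrocyte lineage markers 3 were higher and 2 lower of 8, of neuronal markers 1 and 1 of 9, and of endothelial and choroid plexus markers 1 of 2 and 1 of 6 were lower. The part of these cells in the members' differences was not tested.

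Across the lists of cilia genes, edgeR without the block called 1 gene, Rfx4, in a comparison of virus and treatment. Rfx4 (ENSMUSG00000020037, chromosome 10, 84756062 to 84906538, GRCm38) encodes an RFX factor of the developing brain. It measured 89.9, 66.5 and 117 CPM in control virus with PBS and 262, 176 and 244 CPM with VIP. In ACREB it measured 91.1, 71 and 96.7 CPM with PBS and 169, 108 and 168 CPM with VIP. All VIP libraries of control virus lay above the PBS libraries, and the same held in ACREB. The log2 rise was 1.32 (SE 0.24, edgeR adjusted p = 0.031) with control virus and the difference was 0.78 with ACREB (1.00, with the replicate block 0.028). The interaction was -0.54 (adjusted p = 1.00), so the responses were not shown to differ. With the replicate block Rfx4 was also lower in ACREB than in control virus with VIP (-0.63, adjusted p = 0.032), and the interaction again did not pass (-0.57, adjusted p = 0.94). In 12 fits that left out 1 library the log2 difference with control virus was 1.14 to 1.54. The call was lost, at adjusted p up to 0.18, in 7 of them, those without replicate 1 or 2 of control PBS, 1 or 3 of control VIP, 1 or 3 of ACREB PBS or 3 of ACREB VIP. It held with the replicate block (adjusted p = 0.00018) and without all libraries numbered 2 (1.29, adjusted p = 0.013), and was lost without both PBS libraries numbered 2 (1.13, adjusted p = 0.052). Other fits called 5 further genes between groups, gathered over all these lists, comparisons and fits. For VIP with control virus, 1.63% of all genes were called with the replicate block. For ACREB with PBS and with VIP, DESeq2 called 0.698% and 0.799%. Block and offsets together called 0.71% higher for ACREB with PBS. The share they called lower there, and their shares for ACREB with VIP, are not given here. Cd24a was higher with VIP in control virus with the replicate block (0.40, adjusted p = 0.033). Block and offsets together called Ccdc153 higher with ACREB in VIP (0.67, adjusted p = 0.041) and E2f5, which overlaps 1810022K09Rik, lower with ACREB in PBS and VIP (-0.47 and -0.43, adjusted p = 0.0072 and 0.0075). Tfdp1 was lower with ACREB in PBS with block and offsets (-0.31, adjusted p = 0.037) and in VIP in DESeq2 (-0.25, adjusted p = 0.045). Ift52, a transport subunit, was lower with ACREB in PBS and VIP in DESeq2 (-0.34 and -0.31, adjusted p = 0.0072 and 0.022) and with block and offsets (-0.39 and -0.33, adjusted p = 0.012 and 0.015).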

How the data were processed

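The deposited values are raw counts of reads for each Ensembl gene in 12 libraries, not normalized by the authors. Per the submitters' processing notes, STAR 2.7.1a, HTSeq 0.11.2, Trimmomatic 0.39, edgeR and R 3.6.1 were used, with GRCm38 (mm10). How strand was set in counting, and which annotation, is not given in the sources used here, so genes overlapping another on the opposite strand are uncertain. Positions and exon lengths come from GENCODE M21.

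Tests used edgeR 4.0.16 under R 4.3.3 (filterByExpr, TMM, quasi-likelihood test, 1 mean per group over 12 libraries) and DESeq2 1.42.0 as an alternative, with Benjamini-Hochberg adjustment over 16761 genes and a threshold of 0.05. Number tests used group plus number. The SE is the absolute log2 fold change over the square root of F. Offsets were splines of GC content and length with 4 degrees of freedom per library. Same-numbered libraries deviated together from their group means in 18 of 18 pairs (correlation 0.13 to 0.68). The labels do not say that the numbers pair the samples, so the main tests of virus and treatment took no block. The labels give no batch or date. The scripts were tested on simulated data. Members and lists were chosen with earlier results of these data known. Named in every library were Foxj1, the most abundant member of each role and every member called; of other lists, up to 4 called genes by adjusted p.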

Additional observations from a re-analysis of the deposited data

How the results depend on the processing

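The counts of members called were recomputed with DESeq2, DESeq2 size factors, other filters on low counts, offsets for GC content and length, a replicate block, both together and each library left out. In the comparisons of virus and treatment, 0 of 39 members were called with the replicate block alone, as without it. With the replicate block and offsets together, 1 member was called for VIP with control virus (Rfx2) and 1 for ACREB with PBS (Rsph1). With 1 library left out, 16 to 27 members differed by number in the F test, 15 to 28 were called for number 2 against 1, 0 to 2 for number 3 against 1 and 13 to 24 for number 3 against 2. In those fits 1.9% to 9.55% of all genes were called for number 3 against 1, and the other shares are not given here. Number 3 against 1 gave 2 members with offsets (9.13% of all genes), 1 in DESeq2 (5.92%), 2 with all genes of at least 1 count (2.78%) and 6 without both PBS libraries numbered 2 (16.5%). The causes of these differences between settings were not tested. Leaving out all libraries numbered 2, chosen after seeing the data, also called 0 members in the comparisons of virus and treatment. Over all genes, VIP with control virus called 82 genes in edgeR, 274 with the replicate block and 257 in DESeq2, and the F test of number called 2596, 4684 with offsets and 4032 in DESeq2. Of 969 alternatives to called changes of single members, 130 lost the call and 0 reversed. For members with few counts, such as Mcidas (121), Spag17 (105) and Dnah12 (382), depth limits what can be told from 1 library.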
